A study of Homo sapiens with 4 samples.

Results

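The genes described here are 36 genes of the interferon response and of nucleic acid sensing. They come from a named list that was chosen with earlier results of these data known. The probe annotation names 35 of them, out of 17687 genes with a symbol on the array, and each is read by a single probe set. STAT2 is the member that has no named probe set here, so it was not analysed. The cells were SK-N-AS, a human neuroblastoma line in long-established culture. Their RNA was read on Affymetrix arrays that cover whole transcripts, with 2 arrays of untreated cells and 2 of cells exposed to BG-P400-TAT at 30 µM. Untreated cells received phosphate-buffered saline over the same 48 h, and both groups were grown in IMDM medium with fetal bovine serum. The compound is described in the series title as aimed at both the norepinephrine transporter and integrin αvβ3, a thyroid hormone receptor of the cell surface. The design asks which genes respond to it. The replicates are called biological, and no source says how their cultures were kept apart. The p-values therefore refer to the spread among 4 arrays of 1 cell line at 1 dose and 1 time.

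Cells detect foreign or misplaced nucleic acid with sensors such as MDA5 (encoded by IFIH1) for long double-stranded RNA and cGAS (encoded by CGAS) for cytosolic DNA. These pass the signal through the adaptors MAVS or STING1 to the kinase TBK1 and the transcription factor IRF3, which switches on type I interferon genes. Secreted interferon binds the receptor chains IFNAR1 and IFNAR2, and a complex that holds STAT2 and IRF9 then induces a large set of antiviral genes through a DNA word called the interferon-stimulated response element. The 35 measured genes fall into 11 sensor and signalling genes and 24 induced genes, although IFIH1, IRF9, IRF1 and IRF7 are themselves inducible by interferon.

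About as many of these genes lay above the array background as below it, and exposure to BG-P400-TAT moved none of them past the test. The mean log2 expression of 16 of the 35 exceeded 6.96, the 95th percentile of the negative-control probe sets; among all named genes 49.3% did so. No member passed limma's test at an adjusted p of 0.05, where the background was 0% of the 21448 probe sets, and the smallest adjusted p over all probe sets was 0.948. Before adjustment 2 members had a p under 0.05, IRF1 and IRF7, both below background on all 4 arrays, against 5.08% of all probe sets (2.20% higher and 2.88% lower). For each of the 16 members above background the 95% confidence interval of the difference lay within 2-fold in both directions, as it did for 95.3% of all probe sets above background. These intervals are for single genes and are not adjusted for their number.

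**Figure D1:**
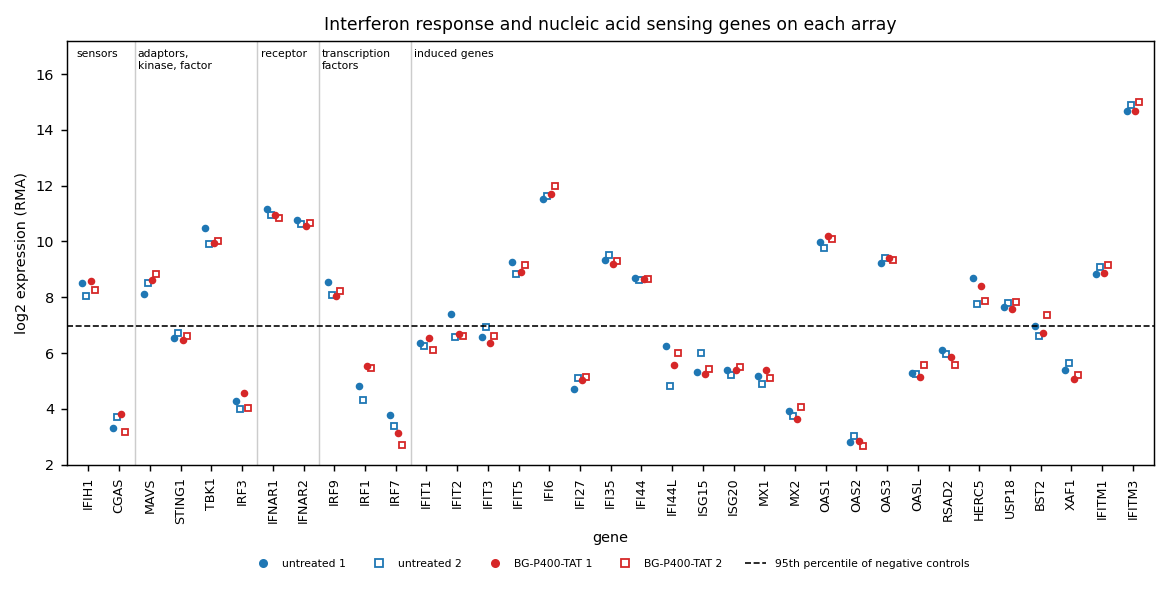
Log2 expression of the 35 measured genes on each of the 4 arrays, ordered by role, with filled circles for replicate 1 and open squares for replicate 2, blue for untreated and red for BG-P400-TAT. The dashed line is the limit of 6.96 from the negative controls: 16 genes lie above it by their mean, and the colours are interleaved for most genes. Heights are read against the line only, because probe sets of different genes differ in their response.

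The limit for single arrays, each array's own 95th percentile, was 7.31 and 7.64 for the untreated pair and 7.19 and 7.25 for the treated pair. By these limits 16 or 17 members were above background on each array, treated or not. Over the whole array untreated replicate 2 was the odd one, with a median absolute difference of 0.244 to untreated replicate 1 against 0.198 between the treated arrays. Over the measured members it did not stand out: the median was 0.273 within the untreated pair, 0.269 within the treated pair and 0.205 between untreated replicate 2 and treated replicate 1. In bulk RNA, fewer expressing cells and less RNA per cell cannot be told apart. Of the listed cell type markers, 9 of 10 mesenchymal and 6 of 8 measured adrenergic neuroblastoma genes were above background (TH and DBH were not). The counts were 1 of 7 for leukocyte (PTPRC), 1 of 3 for plasmacytoid dendritic cell (TCF4), 0 of 5 for endothelial and 2 of 5 for epithelial genes. Among all named genes the share above background was 49.3%.

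Of the 2 sensor genes, IFIH1 was above background and CGAS was not. IFIH1 stood at 8.52 and 8.04 in untreated and 8.58 and 8.27 in treated cells. The groups overlapped, and the treated minus untreated difference was 0.15 on the log2 scale (95% interval -0.41 to 0.71, limma adjusted p = 0.991), a difference that was -0.092 without untreated replicate 2. CGAS, whose protein makes the messenger cGAMP on binding DNA, stood at 3.32 and 3.70 in untreated and 3.81 and 3.15 in treated cells. All 4 CGAS values were below the median of the negative controls, 4.01, so no fold is given. How well this probe set reads the CGAS transcript was not tested.

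Of the 2 adaptor genes, MAVS was above background and STING1 was not. MAVS, the mitochondrial adaptor of the RNA sensors, stood at 8.13 and 8.51 in untreated and 8.62 and 8.85 in treated cells. Both treated values were above both untreated ones, and the difference of 0.41 (SE 0.22, interval -0.10 to 0.92, limma adjusted p = 0.948) was the largest of the 16 members above background, but it did not pass. It was 0.22 without untreated replicate 1 and 0.60 without untreated replicate 2. STING1, the adaptor of the DNA sensor on the endoplasmic reticulum, was below the limit on every array, at 6.53 and 6.72 in untreated and 6.46 and 6.61 in treated cells, although its mean exceeded the 90th percentile of the negative controls (6.24).

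TBK1, the kinase on which both branches converge, stood at 10.48 and 9.92 in untreated and 9.95 and 10.01 in treated cells. Untreated replicate 1 was the high array, and the other 3 lay within a narrow range. The TBK1 difference was -0.22 (interval -0.78 to 0.34), which was 0.061 without untreated replicate 1. IRF3, the transcription factor that TBK1 phosphorylates, was below background on every array, at 4.26 and 3.99 in untreated and 4.57 and 4.03 in treated cells. IRF3 is known to be expressed in most cell types, and how well this probe set reads its transcript was not tested.

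Both chains of the type I interferon receptor were above background, and both also exceeded the 99th percentile of the negative controls (9.42). IFNAR1, the signalling chain, stood at 11.17 and 10.94 in untreated and 10.93 and 10.84 in treated cells. IFNAR2, the chain that binds interferon tightly, stood at 10.77 and 10.63 in untreated and 10.57 and 10.68 in treated cells. Their differences were -0.17 (interval -0.62 to 0.29) and -0.074 (interval -0.51 to 0.37), and neither passed. Without untreated replicate 1 they were -0.055 (IFNAR1) and -0.00065 (IFNAR2), and without untreated replicate 2 they were -0.28 and -0.15. The IFNAR1 groups were separated by less than 0.01, since its lower untreated value and its higher treated value were nearly equal.

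Of the transcription factors of the response, IRF9, the DNA-binding partner of STAT2, was above background on all arrays. It stood at 8.53 and 8.09 in untreated and 8.04 and 8.22 in treated cells, a difference of -0.18 (interval -0.71 to 0.34) that was 0.042 without untreated replicate 1. IRF1, a factor induced quickly by interferon gamma, stood at 4.83 and 4.31 in untreated and 5.54 and 5.45 in treated cells, higher in both treated arrays. IRF7, the factor that amplifies interferon production, stood at 3.78 and 3.38 in untreated and 3.12 and 2.69 in treated cells, lower in both treated arrays. These were the members with the smallest unadjusted p (0.00512 for IRF1 and 0.0255 for IRF7), and each had a limma adjusted p of 0.948. All 8 values lay below each array's limit, so no difference is given and the order of the arrays is not read as a change. Among probe sets not above background, 7.32% had an unadjusted p under 0.05 (2.46% higher and 4.86% lower), and of the 19 members there 1 was higher and 1 lower.

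**Figure D2:**
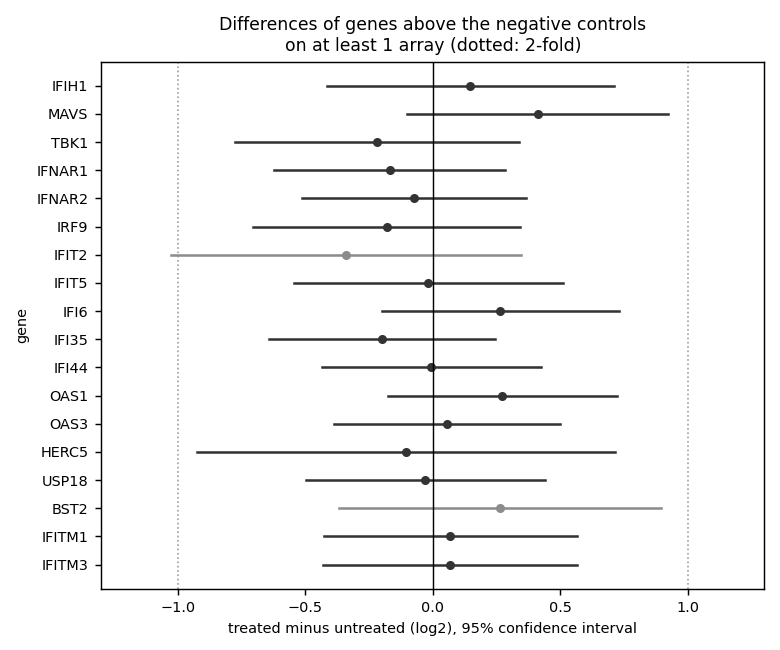
Treated minus untreated difference on the log2 scale (points) with its 95% confidence interval (bars) for the 18 genes above the negative controls on at least 1 array; grey marks IFIT2 and BST2, whose mean was below the limit, and dotted lines mark 2-fold. Every interval crosses 0, and only that of IFIT2 reaches past 2-fold.

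The induced genes are the readout of an interferon response, and 10 of the 24 were above background in untreated and treated cells alike. These were IFIT5, IFI6, IFI35, IFI44, OAS1, OAS3, HERC5, USP18, IFITM1 and IFITM3. The median difference over the 24 was 0.022 on the log2 scale, with 13 positive and 11 negative, where 49.1% of all probe sets were positive. That median and count include 14 genes not above background by their mean (8 positive and 6 negative), which are not read as changes. The median over all named genes was -0.00068. Over the 10 above background it was 0.025, beside 0.040 over all named genes above background. Leaving out untreated replicate 2 turned the 24-gene median to -0.0067, and leaving out treated replicate 2 to -0.071.

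OAS1 and OAS3 encode enzymes that make 2′-5′ oligoadenylate on double-stranded RNA and so activate RNase L. OAS1 stood at 9.97 and 9.77 in untreated and 10.19 and 10.10 in treated cells, with both treated arrays higher. Its difference was 0.27 (SE 0.19, interval -0.18 to 0.72, limma adjusted p = 0.949), and 0.17 without untreated replicate 2. OAS3 stood at 9.24 and 9.39 in untreated and 9.42 and 9.32 in treated cells, and its groups overlapped (difference 0.055, interval -0.39 to 0.50). OAS2, their neighbour on chromosome 12, was below background on every array, between 2.68 and 3.02. OASL, a catalytically inactive relative, was below background too, at 5.28 and 5.23 in untreated and 5.15 and 5.58 in treated cells.

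IFI6, a small inner-membrane protein with antiviral activity, stood at 11.53 and 11.64 in untreated and 11.72 and 11.99 in treated cells. Both treated arrays were higher, by 0.26 (SE 0.20, interval -0.20 to 0.73, limma adjusted p = 0.954), a difference that was 0.13 without treated replicate 2 and 0.40 without treated replicate 1. IFI27, a member of the same protein family, was below background on every array, between 4.72 and 5.12. IFI35, a leucine zipper protein, stood at 9.35 and 9.51 in untreated and 9.18 and 9.28 in treated cells. It was lower in both treated arrays, by less than the test could call (difference -0.20, interval -0.64 to 0.24, and -0.12 without untreated replicate 2).

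The IFITM genes encode membrane proteins that block the entry of enveloped viruses. IFITM3 stood at 14.66 and 14.90 in untreated and 14.68 and 15.01 in treated cells. IFITM1 stood at 8.82 and 9.09 in untreated and 8.88 and 9.17 in treated cells. In both genes replicate 2 was the higher array of each group, and the differences of 0.068 (IFITM3, interval -0.43 to 0.56) and 0.069 (IFITM1, interval -0.43 to 0.56) turned negative without untreated replicate 1 or treated replicate 2. IFITM1, IFITM2 and IFITM3 are close paralogs, and how far their probe sets tell them apart was not tested. IFITM2, which is not one of the 36 genes, was also above background on every array, at 11.53 and 11.68 in untreated and 11.21 and 11.72 in treated cells.

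HERC5, the main ligase that attaches ISG15 to new proteins, had the widest spread of the 16 members above background. It stood at 8.71 and 7.76 in untreated and 8.41 and 7.85 in treated cells. The gap within each group exceeded the difference between groups, -0.10 (interval -0.92 to 0.71), which was 0.37 without untreated replicate 1 and -0.58 without untreated replicate 2. USP18, the protease that removes ISG15 and restrains the receptor, was the member nearest above the limit, at 7.65 and 7.80 in untreated and 7.56 and 7.83 in treated cells. Its difference was -0.029 (interval -0.50 to 0.44). ISG15 itself, the ubiquitin-like modifier that both act on, was below background on every array, at 5.32 and 5.997 in untreated and 5.25 and 5.43 in treated cells.

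Some IFIT proteins bind viral RNA that lacks host cap marks, and 1 of the 4 IFIT genes was above background by its mean. IFIT5 stood at 9.25 and 8.85 in untreated and 8.89 and 9.17 in treated cells, with a difference of -0.018 (interval -0.54 to 0.51). IFIT2 stood at 7.40 and 6.56 in untreated and 6.68 and 6.60 in treated cells, above the array's limit on untreated replicate 1 only. IFIT1 lay between 6.11 and 6.55 and IFIT3 between 6.34 and 6.92, below the limit on every array. IFI44, whose groups overlapped within 8.61 to 8.70, had the smallest difference of the 16 members above background (-0.0049, interval -0.43 to 0.42). Its neighbour IFI44L was below background on every array, at 6.26 and 4.80 in untreated and 5.57 and 6.02 in treated cells.

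The other induced genes were at background. BST2, which encodes tetherin, a protein that holds budding viruses at the cell surface, was nearest below the limit, at 6.96 and 6.61 in untreated and 6.73 and 7.37 in treated cells. It exceeded the array's own limit on treated replicate 2 only, and its difference was 0.26 (interval -0.37 to 0.90). The GTPase genes MX1 and MX2 lay between 4.88 and 5.40 and between 3.64 and 4.05. RSAD2, which encodes viperin, lay between 5.55 and 6.10, the exonuclease gene ISG20 between 5.20 and 5.50, and XAF1, an antagonist of the apoptosis inhibitor XIAP, between 5.05 and 5.66. Of the 24 induced genes, 12 were below the limit on every array, treated arrays included, and below the limit a change was not measured.

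Several induced genes sit next to each other in the genome, and neighbours fell on different sides of the limit. In the RefSeq gene order, OAS1 and OAS3 were above it and the adjacent OAS2 was not; IFI44 was above and IFI44L was not; IFIT5 was above and the adjacent IFIT1 was not. IFITM1 and IFITM3 were both above, whereas MX2 and MX1, and IFIT2 and IFIT3, were both below by their means.

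The RefSeq promoter table (GRCh38.p14, 300 bases per window, 250 of them before the start site) held a window for 26 of the 36 genes. The response element core was searched on both strands as GAAA, any 2 bases and GAAA, which reads TTTC, any 2 bases and TTTC on the other strand. It was found in 16 of the 19 induced genes with a window and in 1 of the 7 sensor and signalling genes, IFIH1, against 4.38% of all genes with a window. The word was present in 7 of 9 induced genes above background and in 9 of 10 below it. Matches of the word were allowed to overlap. A match is a description of the sequence and not of binding.

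The stretches below show a match each for 2 pairs of neighbours on opposite sides of the limit, for IFITM3, IFI6 and ISG15, and for the sensor gene IFIH1. Of a gene's matches, the one shown is the nearest to the start whose 30-base stretch lies wholly before it. By that rule 2 nearer matches in IFIT5, 19 and 4 bases before the start, are not shown. IFI44 has a second annotated start, from which the match shown lies 18 bases away. Each runs 5′ to 3′ along the gene's strand, with the response element word in capitals. The IFI44L stretch occurs in the same letters at a second position in its window, 164 bases before the start.
IFIT5 (above background, chr10:89414513-89414542, plus strand, word 45 bases before the start): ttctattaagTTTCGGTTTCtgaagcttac
IFIT1 (below, chr10:89392510-89392539, plus strand, 103 bases before): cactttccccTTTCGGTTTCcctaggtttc
IFI44 (above, chr1:78649761-78649790, plus strand, 60 bases before): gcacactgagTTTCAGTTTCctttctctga
IFI44L (below, chr1:78620365-78620394, plus strand, 73 bases before): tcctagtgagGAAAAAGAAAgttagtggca
IFITM3 (above, chr11:320876-320905, minus strand, 35 bases before): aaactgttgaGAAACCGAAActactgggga
IFI6 (above, chr1:27672266-27672295, minus strand, 93 bases before): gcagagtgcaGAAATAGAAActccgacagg
ISG15 (below, chr1:1013380-1013409, plus strand, 107 bases before): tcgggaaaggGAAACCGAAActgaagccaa
IFIH1 (above, chr2:162318686-162318715, minus strand, 21 bases before): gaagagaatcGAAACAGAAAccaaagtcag
The words shown for IFIT5 and IFIT1 are the same 10 bases, as are those for IFITM3 and ISG15, and in both of these pairings 1 gene was above background and the other was not. Read on the other strand, the word of the first pairing is that of the second.

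Differences between groups were mostly smaller than the gap between the untreated arrays. This held for 12 of the 16 members above background, against 65.0% of all probe sets above background. The exceptions were MAVS, OAS1, IFI6 and IFI35. The median absolute gap between the untreated arrays was 0.23 over the 16, that between the treated arrays 0.20, and the median absolute difference between groups 0.13. Over all probe sets above background these medians were 0.20, 0.16 and 0.13. A gap between 2 single arrays varies more than a difference between means of 2 arrays. A smaller group difference is therefore likely even without an effect. Groups did not overlap in 3 of the 16 with treated cells higher (MAVS, OAS1 and IFI6), against 20.9% of probe sets above background, and in 2 with treated cells lower (IFNAR1 and IFI35), against 11.5%. For a single gene, 4 arrays allow an exact two-sided permutation p no smaller than 0.333.

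**Figure D3:**
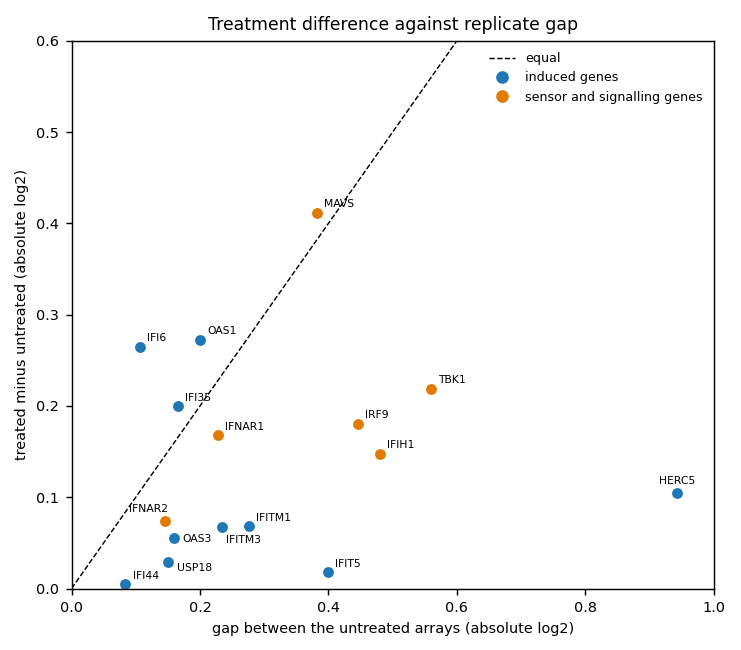
Absolute treated minus untreated difference against the absolute gap between the 2 untreated arrays, both on the log2 scale, for the 16 genes above the negative controls (blue for induced, orange for sensor and signalling genes); the dashed line marks equality. MAVS, OAS1, IFI6 and IFI35 lie above the line and the other 12 below it, with HERC5 farthest to the right.

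A further 103 genes of the pathway were listed, of which 95 had a named probe set and 45 were above background by their mean. The share over all named genes was 49.3%, which also stands beside the counts by list below. By each array's own limit, 41 of the 45 were above it on all 4 arrays, 3 on some and 1 on none. None of the 95 passed the test, and of the 45, 25 were positive and 20 negative, with a median of 0.050, where 58.6% of all probe sets above background were positive. At an unadjusted p under 0.05, 1 of the 45 was higher (PML) and 1 lower (RNASEH2B), against 1.89% and 0.602% of the probe sets above background. The interferon genes themselves gave no signal above background, with 0 of 20 measured above the limit by their mean and none above it on any array. IFNB1, the interferon first made by most non-immune cells, stood at 3.95 and 4.22 in untreated and 4.04 and 4.24 in treated cells.

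Among the other sensors, TLR3, an endosomal receptor for double-stranded RNA, stood at 10.13 and 9.90 in untreated and 9.99 and 9.89 in treated cells. IFI16, a nuclear DNA-binding protein, stood at 9.58 and 8.70 in untreated and 9.15 and 9.35 in treated cells. Their differences were -0.076 for TLR3 and 0.11 for IFI16 (-0.33 without untreated replicate 2), and these were the 2 of 9 above background. RIGI, the sensor of short RNA with a 5′ triphosphate, exceeded the limit on treated replicate 1 only, at 7.39, with 6.80 and 6.53 in untreated cells and 6.78 on treated replicate 2. Its difference was 0.42 (interval -0.19 to 1.02), 0.11 without treated replicate 1 and 0.72 without treated replicate 2. The others not above background were DHX58, TLR7, TLR8, TLR9, ZBP1 and AIM2.

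In the signalling lists, 5 of 8 other adaptors and kinases and 5 of 7 other receptors and kinases were above background by their mean. Among those 5 adaptors and kinases, 1 was below each array's own limit. TRAF3, a ubiquitin ligase that links adaptors to TBK1, had a difference of -0.24 (interval -0.74 to 0.26) and TANK, a TBK1-binding scaffold, -0.20 (interval -0.68 to 0.29). Without treated replicate 2 these were -0.096 and -0.021, and without treated replicate 1 they were -0.39 and -0.37. The receptor kinase genes TYK2 and JAK1 had differences of 0.29 (interval -0.17 to 0.75) and 0.10 (interval -0.37 to 0.57), and that of TYK2 was 0.17 without untreated replicate 1. None of these 4 passed.

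Among brakes and nucleases 9 of 11 were above background. RNASEH2B, a subunit of the RNase that clears RNA:DNA hybrids, stood at 10.77 on both untreated arrays and at 10.43 and 10.22 on the treated arrays. Its difference was -0.44 (SE 0.19, limma adjusted p = 0.948). PTPN1, a phosphatase that acts on JAK2 and TYK2, had 0.29 (interval -0.14 to 0.72). Neither passed, and RNASEH2B was the 1 gene of this list with an unadjusted p under 0.05.

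Of the other induced genes 24 of 40 were above background. PML, the scaffold of nuclear bodies, stood at 7.52 and 6.66 in untreated and 7.74 and 8.001 in treated cells, with untreated replicate 2 below that array's limit. Its difference of 0.78 (interval 0.065 to 1.496, limma adjusted p = 0.948) did not pass and was 0.35 without untreated replicate 2 and 1.21 without untreated replicate 1. With values floored at each array's limit it was 0.29. TRAFD1, a feedback inhibitor of innate signalling, stood at 10.09 and 9.96 in untreated and 10.39 and 10.43 in treated cells, a difference of 0.38 (interval -0.052 to 0.82). It was higher in both treated arrays and did not pass.

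**Figure D4:**
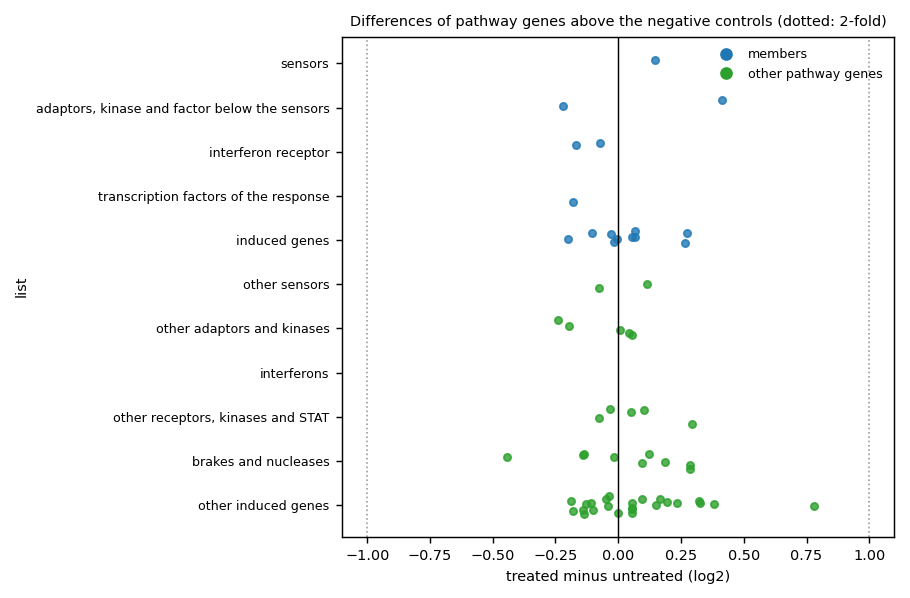
Treated minus untreated difference on the log2 scale of the pathway genes above the negative controls, 1 point per gene (16 members in blue, 45 other genes in green), by list; height within a list has no meaning, and dotted lines mark 2-fold. All points lie within 2-fold, PML (0.78) and RNASEH2B (-0.44) lie farthest out, and the row of interferons is empty because none was above the limit.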

How the data were processed

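The authors deposited log2 expression values per probe set for 4 arrays; software in the submitters' processing notes is Transcriptome Analysis Console 4.0.1.36, with RMA. RMA gives all arrays like distributions, and shifts common to most genes are lost. Of 24351 probe sets, 2903 controls were left out and 21448 tested without a filter; the platform annotation names 17709. No genome build for the probe sets is given in the sources used here. For symbols with several probe sets the brightest was used. The background limit is the 95th percentile over 612 negative-control sets. Groups were compared with limma 3.58.1 in R 4.3.3 (lmFit, eBayes, two-sided, Benjamini-Hochberg over all 21448), with 2 residual and 4.90 prior degrees of freedom; the fit was tested on simulated data. Samples were grouped by their titles. The number of arrays limits precision.

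The genes, lists and limit were chosen with earlier results of these data known. All 36 genes are accounted for; from each other list the 2 genes above background with the smallest p are named, with RIGI and IFNB1. Another listed gene is not reported here. IFITM2, PTPRC and the marker genes named were added after their values were seen. A gene below background on every array is given by level without a difference, and for IRF1 and IRF7 with their p-values. Alternatives were other normalizations, filters, a floor, other variance moderation, a replicate block and each array left out.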

Additional observations from a re-analysis of the deposited data

How the results depend on the processing

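No member passed under any alternative run, and over all probe sets the count of calls was 0 except with a floor at each array's own limit, which gave 10, none of them a member. With that floor every gene with a difference given here had the same SE, 0.18 (HERC5 had 0.35 without it). The spread of single genes therefore did not enter those 10 calls. That floor also moved the median difference of induced genes from 0.022 to -0.26 and that of sensor and signalling genes from -0.074 to -0.22. Both medians include genes not above background, 14 of the 24 induced and 5 of the 11 sensor and signalling genes. With the floor the difference of PML moved from 0.78 to 0.29, that of BST2 from 0.26 to -0.20 and that of RIGI from 0.42 to -0.16. By construction, genes at the floor take the difference between the groups' limits, -0.26. With the 99th percentile of the negative controls as the limit, 6 members were above it (TBK1, IFNAR1, IFNAR2, IFI6, OAS1 and IFITM3), against 28.9% of all named genes. With the 90th, 21 members were above it, against 54.8% of all named genes. The replicate block gave 0 calls. Across probe sets the deviations of same-numbered arrays had a correlation of -0.00085, so no shared replicate effect was seen. This cannot tell whether same-numbered cultures were set up as pairs, which no source states. Quantile normalization, median centring and cyclic loess turned no single difference. Leaving out an array gave 16 to 17 members above background, medians of -0.071 to 0.089 (induced) and -0.12 to 0.042 (sensor and signalling), and these log2 ranges for genes whose sign turned: BST2 -0.054 to 0.58, HERC5 -0.58 to 0.37, IFI16 -0.33 to 0.55, IFI44 -0.047 to 0.037, IFIH1 -0.092 to 0.39, IFIT2 -0.76 to 0.080, IFIT5 -0.22 to 0.18, IFITM1 -0.074 to 0.21, IFITM3 -0.096 to 0.23, IRF9 -0.40 to 0.042, JAK1 -0.040 to 0.25, OAS3 -0.024 to 0.13, TBK1 -0.50 to 0.061, TLR3 -0.19 to 0.037 and USP18 -0.16 to 0.11. In all, 24 of 403 single differences turned, none past the threshold. Quantile normalization and cyclic loess give no value for the count above background, since they were run without control sets.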

Other observations

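PTPRC, which encodes the leukocyte surface phosphatase CD45, was above background on all 4 arrays, at 12.75 and 12.80 in untreated and 12.71 and 12.57 in treated cells. The other 6 measured leukocyte markers (CD3E, CD14, LYZ, ITGAM, TYROBP and CSF1R) were below the limit on every array. PTPRC was chosen for mention after its value was seen, and how well its probe set reads its transcript was not tested.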
